A study of Mus musculus with 32 samples.

Results

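The genes described here are 9 cytoplasmic translation genes of the mouse: the subunits of the elongation factor eEF1 (Eef1a1, Eef1b2, Eef1d and Eef1g), the translocase gene Eef2, the ribosome scaffold gene Rack1, and Tpt1, Pabpc1 and Eif4a1, which encode translation-related proteins that are not elongation factors. They were taken by symbol, and all 9 were found among the 55421 genes of the count table. The levels were measured in liver RNA of 16 mice, each of which gave an m6A IP library and an input library. The IP library was made from RNA broken to about 100 nucleotides and pulled down with an antibody against N6-methyladenosine (m6A, a methyl mark on adenosines of mRNA). The input library is ordinary RNA-seq of the same liver, made with a different, stranded mRNA kit. The animals formed 4 groups of 4: Mettl14 knockout (KO) mice after hepatectomy, Flox control (flox) mice after hepatectomy, KO mice after sham surgery and flox mice after sham surgery, aged 71 to 77 days. Mettl14 encodes a core subunit of the m6A methyltransferase. The labels name no Cre driver, no sex and no interval between surgery and sampling, so the cells in which Mettl14 was deleted are not known here. The labels describe the samples of a group as separate animals.

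In elongation, eEF1A (Eef1a1) brings aminoacyl-tRNA to the ribosome as a GTP-bound protein. The eEF1B complex, made of the exchange factors Eef1b2 and Eef1d and the scaffold subunit Eef1g, recharges eEF1A with GTP, and eEF2 then moves the ribosome along the mRNA. Rack1 is a WD-repeat protein of the small ribosomal subunit that docks kinases, Pabpc1 binds the poly(A) tail, Eif4a1 is the RNA helicase of the cap-binding complex, and Tpt1 (TCTP) is an abundant growth-related protein. The mRNAs of Eef1a1, Eef2, Eef1b2, Eef1g, Rack1, Tpt1 and Pabpc1 are known in mammals as TOP mRNAs: like ribosomal protein mRNAs they begin with a run of pyrimidines (C or T in the gene) through which mTOR controls their translation. Liver regrowth after hepatectomy is known for a large demand for new ribosomes and translation factors.

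Because TOP mRNAs are defined by their first bases, the annotated start sites of the genes that differ most in behaviour below are shown. RefSeq promoters on GRCm38.p6 were found for 6 of the 9 genes (Eef1a1, Eef1b2, Eef2, Rack1, Tpt1 and Eif4a1). Each line gives 90 bases before and 30 bases after the annotated start, 5′ to 3′ on the gene's strand, and capitals mark the longest run of C and T within 50 bases of the start. Rack1 lies on the plus strand at chr11:48800270-48800389, Eef1b2 on the plus strand at chr1:63176741-63176860, Eef1a1 on the minus strand at chr9:78481695-78481814 and Eef2 on the plus strand at chr10:81176541-81176660.
Rack1: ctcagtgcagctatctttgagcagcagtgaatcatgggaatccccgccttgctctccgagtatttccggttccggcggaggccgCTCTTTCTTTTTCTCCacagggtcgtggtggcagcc
Eef1b2: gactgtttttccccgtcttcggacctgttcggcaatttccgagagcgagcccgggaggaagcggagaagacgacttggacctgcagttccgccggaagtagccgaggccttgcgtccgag
Eef1a1: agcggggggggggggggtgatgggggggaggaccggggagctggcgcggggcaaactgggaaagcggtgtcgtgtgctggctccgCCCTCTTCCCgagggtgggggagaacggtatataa
Eef2: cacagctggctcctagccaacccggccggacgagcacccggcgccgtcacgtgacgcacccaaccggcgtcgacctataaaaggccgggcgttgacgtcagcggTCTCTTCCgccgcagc

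Rack1 had the longest run, 16 bases (CTCTTTCTTTTTCTCC, first base at position -6 from the start), a length reached by 2.8% of the 32851 promoters in the RefSeq table. The run of Eef1a1 had 10 bases (reached by 18.1% of promoters) and that of Eef2 had 8 bases (35.7%), against a median of 7 over all promoters. The longest runs of Tpt1 (6 bases, 68.1%) and Eef1b2 (5 bases, 86.5%) lay beyond the bases shown, so the Eef1b2 line has no capitals, and Eif4a1 had only 3 bases (99.6%). Motifs were searched as exact letters on both strands from 250 bases before to 50 bases after the start. TATAAA (in 13.6% of promoters) and TGACGTCA (1.8%) were found in Eef2 alone, CACGTG (7.2%) in Eef2 and Eif4a1, and CCAAT (37.4%) in Eif4a1 alone. The matches in Eef2 did not overlap. The Eef1a1 line ends in TATATAA, after its annotated start, which an exact search for TATAAA does not find. These runs and matches describe the letters in this window only. Whether transcription began at the annotated starts was not tested. As counted, Eef1a1 (minus strand) begins at 78489151 and Tpt1 at 75845093. Both lie outside the 50 bases on each side of the start in which runs were sought. The counted Eef1a1 gene and that of RefSeq shared 0.306 of their joint extent. The run lengths are thus not shown to belong to the mRNAs.

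As the table gives positions, without naming a genome build, the genes with the largest results lay as follows: Rack1 (ENSMUSG00000020372) at chromosome 11, 48800332 to 48806434, plus strand; Eef1b2 (ENSMUSG00000025967) at chromosome 1, 63176825 to 63180486, plus strand; Eef1d (ENSMUSG00000055762) at chromosome 15, 75894205 to 75909556, minus strand; and Eef1a1 (ENSMUSG00000037742) at chromosome 9, 78478449 to 78489151, minus strand. Counts cover all exons of a gene together, so no value below belongs to a particular exon, UTR or m6A site.

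Total counts were 7133766 to 24297854 in the 16 IP libraries and 8177784 to 12533931 in the 16 input libraries, and 6676 to 16846 genes had at least 10 counts in an IP library, against 4176 to 9354 in an input library. Hepatectomy KO replicate 4 gave the IP library with the lowest total and the smallest number of genes, so the IP results are also given without it where they depend on it. The 9 genes held 0.179 to 0.471% of the counts of an IP library and 0.141 to 0.553% of an input library. Mettl14 could not check the genotype labels: it had 0 counts in all 16 input libraries, and in IP it had counts in 1 of 4 hepatectomy KO and 3 of 4 hepatectomy flox libraries and in 2 of 4 libraries of each sham group. The summed CPM (counts scaled to a library total of 1000000) of 6 hepatocyte markers was 42049 to 52869 in hepatectomy KO inputs and 47710 to 52646 in hepatectomy flox inputs and no marker was at 0. In bulk tissue, fewer cells of a type and less RNA per cell cannot be told apart.

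Scaled by summed exon length, Eef1a1 had the highest level in IP, with 389 ± 138 CPM per kb (SD, n = 16 animals), ahead of Eef2 with 269 ± 71.8, Tpt1 with 89.1 ± 26.8 and Pabpc1 with 55.4 ± 37.3. Eef1g (31.7), Eef1b2 (31.5), Eif4a1 (13.9), Rack1 (12.4) and Eef1d (9.20) followed. Between neighbours in that order, only Eef2 and Tpt1 had ranges of mean ± SD that did not overlap, and Eef2 was above Tpt1 in 16 of 16 animals. Eef1a1 was above Eef2 in 15 of 16 animals, while Eef1g was above Eef1b2 in 9 of 16 and Rack1 above Eef1d in 7 of 16. In the input libraries the first 4 genes kept this order, with Eef1a1 at 488 ± 204 and Eef2 at 245 ± 94.2 CPM per kb, and Eef1d was again lowest at 9.53 ± 10.3. The exchange subunit Eef1b2 and the scaffold subunit Eef1g stood at 32 ± 29.2 and 23.4 ± 24.5 CPM per kb there. The divisor sums all exons of a gene and need not be the length of its mRNA. It was 5119 bases for Rack1, 6488 for Eef1d and 2532 for Eef1b2. Unscaled IP means were 79.7 CPM for Eef1b2, 63.3 for Rack1, 60.3 for Eif4a1 and 59.7 for Eef1d. The order of the lower genes therefore depends on the scaling.

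In the IP libraries of hepatectomised animals, Rack1 and Eef1b2 rose in KO livers, and no gene of the 9 fell. Rack1 had 115, 82.3, 181 and 167 CPM in hepatectomy KO IP libraries, against 28.0, 16.7, 4.86 and 8.32 CPM in hepatectomy flox IP libraries. Every KO value lay above every flox value, and the means were 136 ± 45.7 and 14.5 ± 10.3 CPM (SD, n = 4 each), a log2 difference of 2.94 (SE 0.64, adjusted p = 0.014 by edgeR's quasi-likelihood test over 14020 genes with Benjamini-Hochberg adjustment). Eef1b2, the nucleotide exchange subunit, had 131, 164, 336 and 64.1 CPM in hepatectomy KO IP libraries, against 13.9, 37.4, 44.9 and 41.1 CPM in hepatectomy flox IP libraries. Its groups did not overlap either, with means of 174 ± 116 and 34.3 ± 14 CPM and a log2 difference of 2.08 (SE 0.54, edgeR adjusted p = 0.048), close to the threshold of 0.05. These 2 of 9 genes compare with 0.342% of all genes called higher in this comparison (48 genes) and 1.5% called either way (210 genes). Those shares include many genes of low level. With only genes at a mean of at least 50 CPM fitted, edgeR called 13.5% either way (388 of 2872), and 3 of the 9. The share over all genes is thus a low background for genes of this level.

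The call of Rack1 was lost without hepatectomy flox replicate 3 (log2 2.64, edgeR adjusted p = 0.062), without flox replicate 4 (2.74, adjusted p = 0.067) or without KO replicate 3 (2.77, adjusted p = 0.054), and that of Eef1b2 without any of the 8 animals except KO replicate 4, with a lowest log2 of 1.53 (edgeR adjusted p = 0.3) without KO replicate 3. Without KO replicate 4, the shallow library, Rack1 stood at 2.84 (adjusted p = 0.0083), Eef1b2 at 2.35 (adjusted p = 0.005) and Pabpc1 at 1.46 (adjusted p = 0.0079), so that 3 of the 9 genes passed the threshold, against 3.06% of the 14958 genes of that fit (457 genes).

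The other subunits of eEF1B did not pass the test. Eef1g, the scaffold subunit, had 141, 145, 218 and 115 CPM in hepatectomy KO IP libraries, against 54.7, 62.1, 21.7 and 44.2 CPM in hepatectomy flox IP libraries, without overlap (log2 1.48, SE 0.59, edgeR adjusted p = 0.24). Eef1d, the other exchange factor, had 79.4, 84.5, 77.9 and 0.28 CPM in KO, against 47.1, 50.5, 61.5 and 30.2 CPM in flox. Of its KO values, 3 lay above all flox values and that of replicate 4, which rests on 2 counts, lay far below them (log2 0.09, SE 0.74, edgeR adjusted p = 0.99). Groups without overlap were seen for 4 of the 9 genes, all with KO higher (Rack1, Eef1b2, Eef1g and Tpt1), against 4.37% of all genes.

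The abundant factors differed little or varied between KO animals. Eef1a1 had 1525, 1024, 1265 and 511 CPM in hepatectomy KO IP libraries, against 595, 525, 685 and 776 CPM in hepatectomy flox IP libraries (log2 0.49, SE 0.33, edgeR adjusted p = 0.64), with replicate 4 below and the other KO animals above all flox animals. Eef2 had 950, 1067, 1005 and 408 CPM in KO, against 699, 740, 849 and 899 CPM in flox, the same arrangement (log2 -0.16, SE 0.30, edgeR adjusted p = 0.94). The sign of its difference, and that of Eef1d, turned under some alternatives (log2 -0.19 to 0.11 for Eef2 and -0.04 to 0.36 for Eef1d). Tpt1 had 303, 273, 368 and 210 CPM in KO, against 104, 197, 202 and 157 CPM in flox; its groups did not overlap, but the difference of 0.54 (SE 0.34, edgeR adjusted p = 0.58) was not called.

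Pabpc1 and Eif4a1, the poly(A) binding protein and the initiation helicase, varied widely between KO animals. Pabpc1 had 584, 573, 1151 and 146 CPM in hepatectomy KO IP libraries, against 221, 261, 197 and 246 CPM in hepatectomy flox IP libraries, so 3 KO animals lay above the whole flox range and 1 below it (log2 1.14, SE 0.41, edgeR adjusted p = 0.20). Besides the fit without KO replicate 4, it was called by DESeq2 (log2 1.25, adjusted p = 0.047), which called 5.77% of all genes, and with a filter at a mean of 50 CPM (1.41, edgeR adjusted p = 0.037), where 13.5% of the genes were called. Eif4a1 had 8.39, 66.2, 108 and 180 CPM in KO, against 24.6, 54.4, 36.3 and 15.1 CPM in flox, with overlap (log2 1.19, SE 0.69, edgeR adjusted p = 0.53). Across the 9 genes the median log2 difference was 1.14 and 8 were above 0, while the median over all genes tested was 0.01 and 50.2% were above 0.

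**Figure D1:**
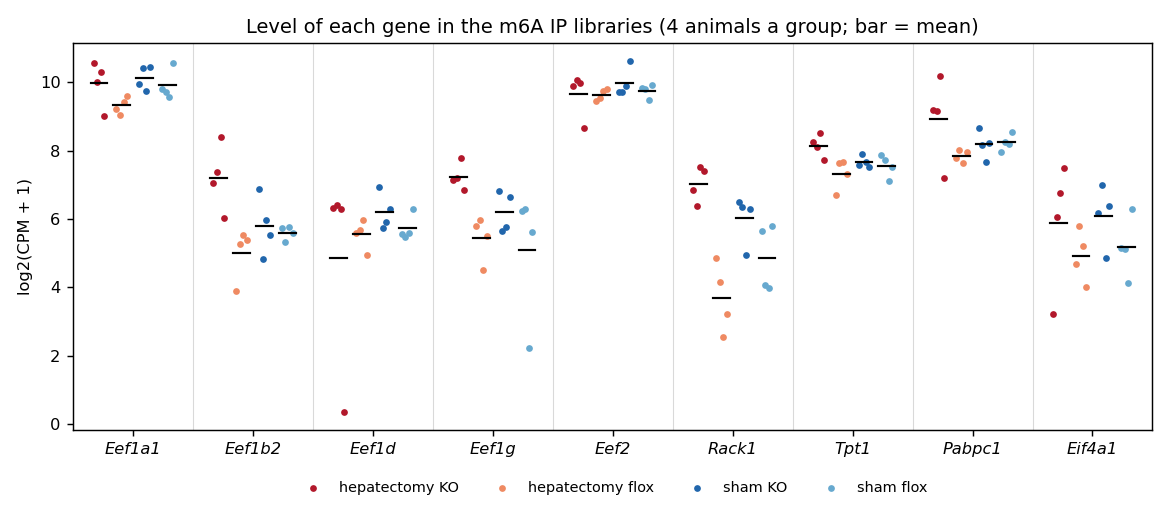
Level of each gene in the 16 IP libraries as log2(CPM + 1); each point is an animal, bars are means of the 4 animals of a group. Rack1 in hepatectomy KO livers (82.3 to 181 CPM) lies wholly above hepatectomy flox livers (4.86 to 28.0 CPM), and the hepatectomy KO animal with Eef1d at 0.28 CPM is replicate 4.

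The same fit placed these genes beside the rest of the translation machinery. Of 72 cytosolic ribosomal protein genes tested, 19 rose in hepatectomy KO IP libraries, none fell, and all 72 had a difference above 0 (median log2 1.73). Rps12 averaged 252 CPM in KO and 28.5 CPM in flox (log2 2.86, SE 0.51, edgeR adjusted p = 0.0022). Among 7 other non-ribosomal TOP mRNAs 1 rose, Fau, which encodes a ubiquitin-like protein fused to a ribosomal protein, with 444 CPM in KO and 109 CPM in flox (1.76, SE 0.40, edgeR adjusted p = 0.017), and the median was 1.29. None of 38 initiation factors (median 0.62), 16 other elongation factors and their modifiers (0.22) or 12 genes of poly(A) binding, TOP regulation and termination (0.14) passed the threshold in either direction. Rack1's difference was larger than the median of the ribosomal protein genes, and that of Eef2 lay near the median of all genes.

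Among the marker lists, only those of hepatocytes and stellate cells differed without overlap between genotypes in the same libraries, and none was tested. The summed CPM of the 6 hepatocyte markers was 16108 to 35688 in hepatectomy KO IP libraries and 37070 to 49174 in hepatectomy flox IP libraries, without overlap. The 5 stellate cell markers summed to 346 to 540 CPM in KO and 161 to 220 CPM in flox, and the 7 Kupffer cell and macrophage markers to 473 to 1180 CPM in KO and 399 to 646 CPM in flox. Dividing-cell markers (6 genes) summed to 441 to 1887 CPM in KO and 276 to 489 CPM in flox, and the 5 sinusoidal endothelium markers to 63.6 to 477 CPM in KO and 112 to 197 CPM in flox. The 4 cholangiocyte markers found summed to 54.4 to 198 CPM in KO and 8.98 to 170 CPM in flox, the 3 erythroid genes to 15.5 to 44.3 CPM in KO and 10.5 to 84.2 CPM in flox, and the 5 leukocyte markers to 12.8 to 357 CPM in KO, with Cd3e at 0, and 0 to 43.2 CPM in flox, with Cd79a and S100a9 at 0. In all other lists no marker was at 0 in every library of either group. The part of these marker differences in the Rack1 and Eef1b2 differences was not tested. Trim41, which shares 31 bases of exon with Rack1 on the opposite strand, stood at log2 -0.88 (edgeR adjusted p = 0.81), and Ndufs1, which shares 9 bases with Eef1b2 on the opposite strand, at 0.19 (adjusted p = 0.99).

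After sham surgery the genotypes could not be separated at any of the 9 genes. Rack1 had 88.7, 81.3, 29.6 and 77.3 CPM in sham KO IP libraries, against 49.2, 15.7, 14.9 and 54.3 CPM in sham flox IP libraries, with overlap (log2 0.93, SE 0.60, edgeR adjusted p = 1). Eef1b2 had 116, 27.5, 61.6 and 45.7 CPM in sham KO, against 52.6, 39.1, 53.4 and 47.1 CPM in sham flox, where the flox values lay inside the KO range (log2 0.24, SE 0.52, edgeR adjusted p = 1). The other 7 genes differed by -0.16 (Pabpc1) to 0.84 (Eif4a1) on the log2 scale, and edgeR called 0 of 9 (0 also at an unadjusted p under 0.05, against 5.69% of all genes), with a background of 0.0927% (13 genes). The median of the 9 genes, 0.24, lay near the median of all genes, 0.16. The difference between the genotype effects after hepatectomy and after sham surgery, tested as an interaction, was 2.01 for Rack1 (edgeR adjusted p = 0.58), 1.84 for Eef1b2 (0.57) and 1.29 for Pabpc1 (0.60) on the log2 scale. It passed the threshold for 0 of 9 genes (3 at an unadjusted p under 0.05, against 7.88% of all genes), with a background of 0.0285% (4 genes), so the larger values after hepatectomy are not shown to differ from those after sham surgery.

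**Figure D2:**
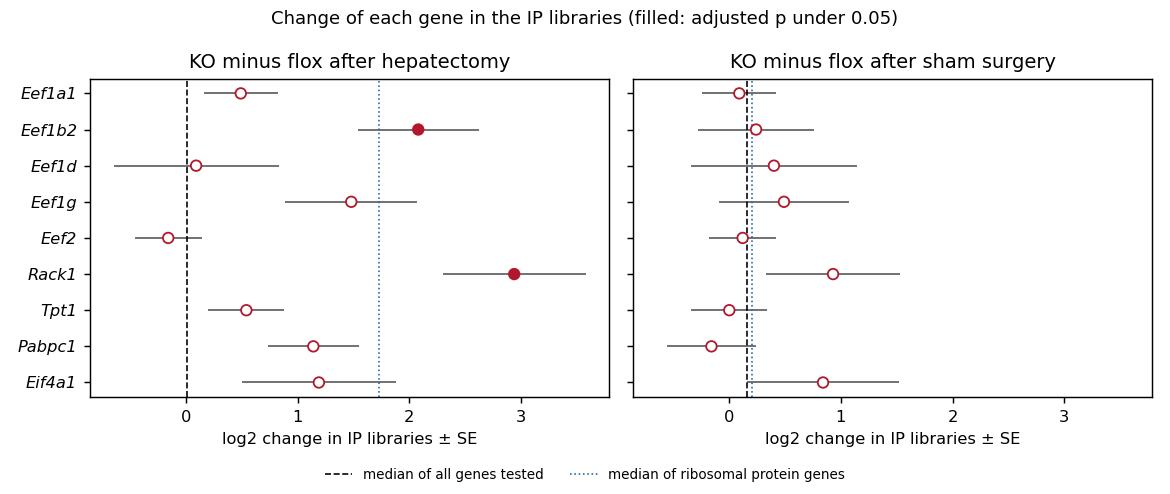
Log2 difference in the IP libraries between KO and flox livers for each gene, with its standard error, after hepatectomy (left) and sham surgery (right); filled points passed an adjusted p of 0.05. Rack1 (2.94) and Eef1b2 (2.08) are filled after hepatectomy and no point is filled after sham surgery.

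Hepatectomy itself moved none of the 9 genes past the threshold in IP. In flox livers all 9 had lower fitted levels after hepatectomy than after sham surgery, by log2 -0.06 (Eef1g) to -1.12 (Rack1, 14.5 ± 10.3 CPM after hepatectomy and 33.5 ± 21.2 CPM after sham surgery, SD, n = 4 each, edgeR adjusted p = 0.83). Their median was -0.25, where all genes had 0.05 and 52.3% were above 0. The sign turned under some alternatives for Eef1g (log2 -0.15 to 0.89) and Tpt1 (-0.21 to 0.08). Leaving out 1 replicate also turned it for Eef1d (-0.24 to 0.1) and Eif4a1 (-0.63 to 0.27). The background was 0.0285% of genes called (4), and 0 of the 9 had an unadjusted p under 0.05, against 6.93% of all genes. In KO livers 6 of the 9 were above 0, against 46.8% of all genes. Eef1b2 averaged 174 ± 116 CPM after hepatectomy and 62.8 ± 38.4 CPM after sham surgery (log2 1.40, SE 0.53, edgeR adjusted p = 0.33), and Pabpc1 614 ± 413 CPM and 299 ± 83.3 CPM (0.95, SE 0.41, edgeR adjusted p = 0.40). Eef1g was the only gene of the 9 whose groups did not overlap there, with 155 ± 44.3 CPM after hepatectomy and 78.6 ± 32.1 CPM after sham surgery (0.93, SE 0.58, edgeR adjusted p = 0.75), against 2.12% of all genes without overlap and higher. None of the 9 was called (2 at an unadjusted p under 0.05, against 9.46% of all genes), with a background of 0.635% (89 genes). Without hepatectomy KO replicate 4, Pabpc1 was called (log2 1.28, edgeR adjusted p = 0.034), against 1.69% of the genes of that fit. Of the ribosomal protein genes 1 of 72 rose in KO livers after hepatectomy (Rpl21, log2 1.86, SE 0.43, edgeR adjusted p = 0.035) and 0 of 72 in flox livers. DESeq2 also called 0 of the 9 between surgeries in flox livers (1.95% of all genes called) and in KO livers (2.95%), between genotypes after sham surgery (1.33%) and in the interaction (1.91%). The comparisons share groups, so their values are not independent of each other.

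In the input libraries, which measure the mRNA without pull-down, edgeR called no difference for any of the 9 genes. Eef1a1 had 1897, 2545, 1630 and 955 CPM in hepatectomy KO inputs, against 1141, 674, 886 and 709 CPM in hepatectomy flox inputs; only KO replicate 4 lay inside the flox range. Its log2 difference was 1.24 (SE 0.32), or 0.76 above the median of all genes (0.49), with an unadjusted p of 0.00028 and an adjusted p of 0.27 by edgeR, while DESeq2 gave 1.05 with an adjusted p of 0.0031. Rack1 had 240, 219, 110 and 29.3 CPM in hepatectomy KO inputs, against 1.40, 41.5, 81.6 and 26.1 CPM in hepatectomy flox inputs, with overlap through replicate 4 (log2 2.16, SE 1.93, edgeR adjusted p = 1). Eef1b2 had 96.1, 83.3, 161 and 0.0798 CPM in KO inputs, against 0, 22.4, 228 and 113 CPM in flox inputs, and so showed no order between genotypes (log2 0.16, SE 1.85, edgeR adjusted p = 1). The IP difference of Eef1b2 had no called counterpart in input, where its standard error was nearly as large as the IP difference.

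Tpt1 (log2 1.51, edgeR adjusted p = 0.49), Pabpc1 (1.23, 0.57), Eef1g (0.81, 1) and Eef2 (0.79, 0.40) were also above 0 in hepatectomy KO inputs, Eif4a1 was at -0.08 and Eef1d at -1.05. Pabpc1 had 442, 425, 550 and 261 CPM in hepatectomy KO inputs, against 95.4, 197, 324 and 219 CPM in hepatectomy flox inputs, and Tpt1 had 297, 442, 643 and 197 CPM in KO, against 106, 82.6, 105 and 356 CPM in flox, each with overlap. Eef2 had 838, 1537, 1181 and 696 CPM in KO, against 619, 695, 823 and 703 CPM in flox. In this input comparison edgeR called 0 of 9 genes (1 at an unadjusted p under 0.05, against 14% of all 8769 genes), with a background of 0.0342% (3 genes), and 7 of 9 were above 0, against 63.3% of all genes. The ribosomal protein genes had a median of 1.11 and 0 of 72 called. The summed level of the 9 genes was 4098 ± 1369 CPM in hepatectomy KO inputs and 2342 ± 298 CPM in hepatectomy flox inputs (SD, n = 4 each). The groups overlapped (2289 to 5529 CPM in KO and 2189 to 2790 CPM in flox). Most of the KO sum came from Eef1a1 (mean 1757 CPM) and Eef2 (1063 CPM), so it says little about the other genes.

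In sham livers the input difference was 0.87 for Eef2 (edgeR adjusted p = 0.49), which had 973, 934, 821 and 919 CPM in sham KO and 734, 285, 227 and 1050 CPM in sham flox. The KO values of Eef2 were close together and lay within the wide flox range. None of the 9 genes was called between genotypes after sham surgery by edgeR, where 0.0114% of all genes (1) were, and 2 of the 9 had an unadjusted p under 0.05, against 9.04% of all genes. Between surgeries in flox livers edgeR called none of the 9 and 0% of all genes, with 1 of the 9 and 17% of all genes at an unadjusted p under 0.05. Between surgeries in KO livers it called none of the 9 and 0.0228% of all genes (2), with 0 of the 9 and 2.73% of all genes at an unadjusted p under 0.05. In the interaction it called none of the 9 and 0% of all genes, with 2 of the 9 and 12.3% of all genes at an unadjusted p under 0.05. DESeq2 called 1 gene of the 9 in each of 4 input comparisons: Eef1a1 between genotypes after hepatectomy, and Eef1d, which had 0 counts in the sham flox inputs, between genotypes after sham surgery, between surgeries in flox livers and in the interaction. Its share of all genes called was 12% between genotypes after hepatectomy, 7.45% between genotypes after sham surgery, 15.4% between surgeries in flox livers and 14.1% in the interaction. It called 0 of the 9 between surgeries in KO livers, against 1.69% of all genes. In the same libraries edgeR called 0 to 3 genes in each comparison, so 1 of 9 is near the share DESeq2 called over all genes.

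**Figure D3:**
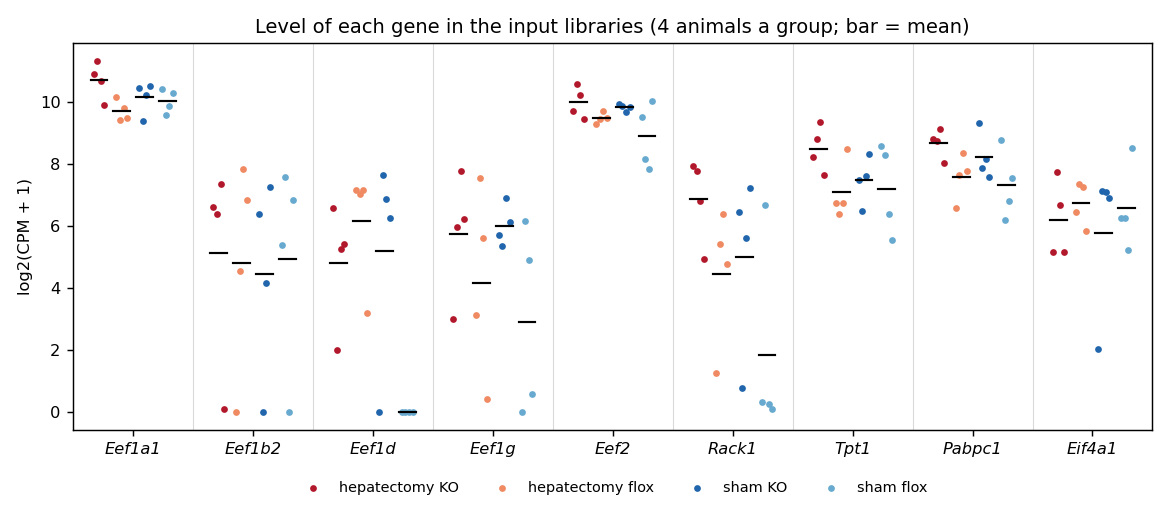
Level of each gene in the 16 input libraries as log2(CPM + 1); each point is an animal, bars are means of 4. Eef1d is at 0 in all 4 sham flox inputs, and Eef1b2, Eef1g and Rack1 are near 0 in 1 or more libraries of several groups, while Eef1a1 and Eef2 do not.

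Among the genes of middle level, Rack1, Eef1g and Eef1b2 were far more uneven between animals of a group in input than in IP. Averaged over groups, the coefficient of variation (CV, SD as a percentage of the mean) of Rack1 was 51.7% in IP and 110% in input, that of Eef1g 43.7% in IP and 106% in input, and that of Eef1b2 45.5% in IP and 99.7% in input. Genes within 2-fold of Rack1's level had a median CV of 46.1% in IP and 103% in input, so Rack1 was not unusual for its level. Eif4a1, also of middle level, differed less, with 62.2% in IP and 77.1% in input. Eef1d had 40.7% in IP and 77.5% in input, where the sham flox inputs, all at 0, gave no CV. Eef1a1, the most abundant, had 28.6% in IP and 29.9% in input. The sham flox inputs show the pattern: Rack1 had 0.243, 101, 0.196 and 0.0811 CPM there, 3, 1187, 2 and 1 counts, although the IP libraries of the same animals held 49.2, 15.7, 14.9 and 54.3 CPM. Eef1b2 had 0 counts in 3 of the 16 inputs and Eef1g in 1, with no gene of the 9 at 0 in any IP library. A count of 0 allows at most 0.239 to 0.367 CPM in an input library (3 counts of the total), for counting error only.

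**Figure D4:**
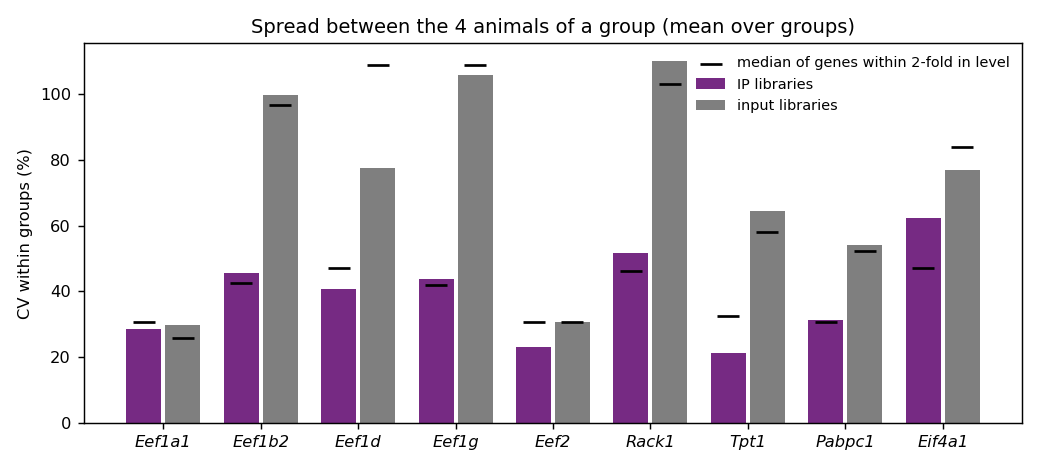
Coefficient of variation between the 4 animals of a group, averaged over groups, in IP and input libraries (bars from 0), with the median of all genes within 2-fold of the same level (black lines). Rack1, Eef1g and Eef1b2 reach 99.7 to 110% in input and 43.7 to 51.7% in IP, close to genes of like level, and Eef1a1 is near 30% in both.

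Eef1d, the exchange factor with a leucine zipper, was not detected in any sham flox input and was detected in every other group. It had 0 counts in all 4 sham flox inputs, against 46.2, 43.7, 47.1 and 76.7 CPM in the IP libraries of the same animals. Its inputs in the other groups had 95.1, 3.03, 37.3 and 41.7 CPM (hepatectomy KO), 143, 130, 143 and 8.2 CPM (hepatectomy flox) and 0, 198, 115 and 75.9 CPM (sham KO). Against the floor of 3 counts over the 4 sham flox inputs (0.0643 CPM, for counting error only), the sham flox IP mean of 53.4 CPM was at least 831-fold higher. On the same floor the hepatectomy flox input mean was at least 1649-fold higher, the sham KO input mean at least 1510-fold and the hepatectomy KO input mean at least 689-fold. The spread between animals is not in these values, and sham KO replicate 1 also had 0 counts in input. They are therefore no lower bounds on a difference between groups. Among 3053 genes with a mean input level within 2-fold of that of Eef1d (30.9 to 124 CPM), 82 genes (2.69%) had 0 counts in all 4 inputs of some group and 41 (1.34%) in all sham flox inputs. Other genes of its level thus showed zeros of the same kind.

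With these zeros, Eef1d was the only gene of the 9 called as IP over input, in sham flox livers (edgeR adjusted p = 0.0043, against 0.258% of all 14328 genes, 37 genes), and its IP/input difference was called lower in sham KO than in sham flox livers (adjusted p = 0.031, against 0.0209%, 3 genes) and lower in hepatectomy flox than in sham flox livers (adjusted p = 0.018, against 0.181%, 26 genes). The interaction was not called by edgeR (adjusted p = 0.054; 6 genes called, 0.0419%). It was called by DESeq2 (adjusted p = 1.4e-06, with 22.3% of all genes called), and by edgeR with upper-quartile factors (adjusted p = 0.024), no filter (0.011), a filter at a mean of 50 CPM (0.038) or without hepatectomy KO replicate 4 (0.042). With the animal as a block, the IP/input differences of Eef1d lost the call (edgeR adjusted p = 0.5 between genotypes in sham livers and 0.10 between surgeries in flox livers), as they did with differences per animal in limma (adjusted p = 0.82 and 0.29). IP over input in sham flox livers kept its call with that block in edgeR but not in limma (log2 10.5, adjusted p = 0.051). The call between genotypes in sham livers was also lost without any of 7 of the 8 animals, the exception being sham KO replicate 1 (edgeR adjusted p = 0.025), the animal with 0 counts in its input. The fitted sizes, log2 12.61 for IP over input, depend on the prior count and are no bound.

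For the abundant genes the ratio of IP to input varied less between animals than for the others. Over the 16 animals it still ran from log2 -1.31 to 1.05 for Eef1a1 and from -1.18 to 2.01 for Tpt1. With 0.5 counts added, the SD of log2 IP/input over the 16 animals was 0.55 for Eef1a1, 0.67 for Eef2, 0.88 for Pabpc1 and 0.93 for Tpt1, against 1.84 for Eif4a1, 3.65 for Eef1g, 3.99 for Rack1, 4.42 for Eef1b2 and 5.80 for Eef1d. The log2 IP/input of Eef1a1 was -0.31, -1.31, -0.37 and -0.90 in hepatectomy KO, and -0.94, -0.36, -0.37 and 0.13 in hepatectomy flox animals. After sham surgery it was -0.49, 1.05, -0.50 and -0.06 in KO animals, against -0.60, 0.16, -0.30 and 0.26 in flox animals. It was below 0 in all 4 hepatectomy KO animals and on both sides of 0 in the other groups. Eef2 had 0.18, -0.53, -0.23 and -0.77 in hepatectomy KO, and 0.18, 0.09, 0.04 and 0.35 in hepatectomy flox animals. After sham surgery Eef2 had -0.20, -0.16, 0.22 and 0.78 in KO animals, against 0.30, 1.64, 1.66 and -0.12 in flox animals, where replicates 2 and 3 stood apart. Neither gene was called as enriched or depleted in IP in any group.

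Eif4a1 was the member most often lower in IP than in input, closely followed by Eef1a1. IP was above input in 3 of 16 animals for Eif4a1 and in 4 of 16 for Eef1a1. The log2 IP/input of Eif4a1 was -1.81, -1.58, -2.05 and -1.90 in hepatectomy flox and -1.09, -1.16, -1.16 and -2.22 in sham flox animals, below 0 in all 8 flox animals. In KO animals it was -2.03, -1.68, 0.11 and 2.38 after hepatectomy and 4.51, -0.11, -2.27 and -0.53 after sham surgery, on both sides of 0. In hepatectomy flox livers its mean was 32.6 ± 16.9 CPM in IP and 114 ± 51.0 CPM in input (SD, n = 4 each), without overlap, yet the fitted difference of -1.46 (SE 1.14) was not called (edgeR adjusted p = 0.46); 0.851% of all genes were without overlap and lower in IP there. The median gene stood at log2 1.27 in the same contrast, and at 0.31 in hepatectomy KO, 0.71 in sham KO and 0.95 in sham flox livers. None of the 9 genes was called by edgeR as IP over input in hepatectomy KO (background 0.328%, 47 genes), hepatectomy flox (1.21%, 174 genes) or sham KO livers (0.0209%, 3 genes). At an unadjusted p under 0.05 stood 1 of the 9 in hepatectomy KO, against 19.9% of all genes, 0 in hepatectomy flox, against 34.9%, and 0 in sham KO livers, against 20.5%.

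**Figure D5:**
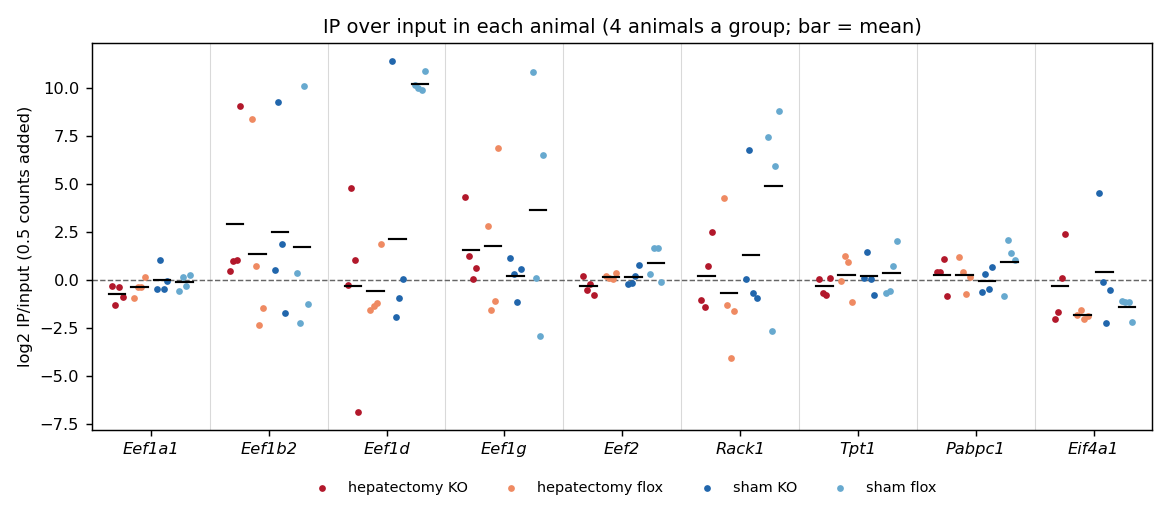
Log2 ratio of IP to input CPM in each animal, with 0.5 counts added, by gene and group; bars are means of 4 animals and the dashed line is an equal level. Eef1d lies at 9.91 to 10.88 in sham flox animals, whose inputs had 0 counts, while all Eif4a1 values of flox animals lie below 0.

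The IP/input difference between KO and flox livers after hepatectomy was called by edgeR for 0 of 9 genes (0 at an unadjusted p under 0.05, against 21.4% of all genes), with a background of 0.712% (102 genes). The median over all genes was -0.99. Rack1 stood at 0.73 (SE 2, edgeR adjusted p = 1) and Eef1b2 at 1.82 (SE 2.07, adjusted p = 0.86), while Eef1a1 stood at -0.85 (SE 0.48, adjusted p = 0.33) and Eef2 at -1.04 (SE 0.55, adjusted p = 0.27). Rack1's IP difference in hepatectomy KO livers was thus not shown to exceed its input difference, which had the same sign and a larger error. Between surgeries in KO livers 0 of 9 genes were called by edgeR (0 at an unadjusted p under 0.05, against 11.9% of all genes; background 0.0349%, 5 genes), with values between -0.72 (Eef1a1) and 0.80 (Eef1b2). DESeq2 called 0 of the 9 in both of these IP/input comparisons (22.6% of all genes called between genotypes after hepatectomy and 11.2% between surgeries in KO livers). As IP over input it called 0 of the 9 in hepatectomy KO (14.2% of all genes), hepatectomy flox (28.8%) and sham KO livers (14.5%).

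The counts of some of these genes may include reads of near-identical copies or overlapping genes, because neither the counting program nor its strand setting is named in the labels. Eef1a1 had values that were not whole in 31 of 32 libraries, Tpt1 in 25 and Rack1 in 1, as when reads are shared between genes. The unnamed gene ENSMUSG00000076138 lies within an exon of Eef1a1 and held counts equal to 5.4% of those of Eef1a1 in IP and 6.81% in input. Since edgeR called Eef1a1 in no comparison, the fit with these counts added had no call to end. The pseudogene Tpt1-ps3 held counts equal to 3.33% of those of Tpt1 in IP and 1.69% in input, and Naprt, next to Eef1d, shares 277 bases (4.27%) of its exons.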

How the data were processed

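The deposited table holds estimated counts per gene, not scaled between libraries and by Ensembl identifier (55421 genes), for 32 libraries of 16 mice; it was read as deposited and rounded to whole numbers. Between 1.33% and 8.22% of a library's values were not whole. Reads were processed with fastp and STAR, per the submitters' processing notes. No version, counting program, strand setting, annotation or genome build is given in the sources used here. Genes were named by position against RefSeq on GRCm38.p6 (names only; 35572 genes named, holding 93.9% of counts, and 816 after a shift by 1000000 bases). The group of every library came from its labels. Since input and IP libraries differ in kit and fragmentation, IP over input is read beside its own background.

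edgeR 4.0.16 in R 4.3.3 was run with TMM factors, filterByExpr (minimum count 10), a coefficient per group, quasi-likelihood tests and Benjamini-Hochberg adjustment over all genes (threshold 0.05, with 2-fold for IP over input). Fits covered 16 IP libraries (14020 genes), 16 inputs (8769) or all 32 (14328). Called means past that threshold. CPM are counts scaled to a library total of 1000000. DESeq2 1.42.0, limma 3.58.1 and other filters and scalings were alternatives, and the nested gene in Eef1a1 was an alternative chosen after seeing the data. The code was tested on simulated counts. Input and IP libraries of an animal share its code in the labels, which pairs them. Over 582 abundant genes their deviations from group means correlated at only -0.07 to 0.15 (median 0.025). The pairing thus rests on the labels and is hardly visible in the counts. Of the other pathway lists, up to 4 genes with the smallest p-values among those called were taken per comparison, of which some are not reported here. The 9 genes, the lists, the markers and the tests were chosen with earlier results of these data known. The labels name no molecular identifiers, and PCR copies are not independent, so floors (3 counts) cover counting error only. At these totals 1 library's floor was 0.123 to 0.421 CPM in IP and 0.239 to 0.367 CPM in input. No 2 libraries held identical values (0 pairs).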

Additional observations from a re-analysis of the deposited data

Results flagged for a closer look

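Of 108 sets of 4 animals examined (9 genes, 8 groups of libraries and 4 groups of ratios), 13 had an animal whose gap to the nearest of the others, as a share of the set's range, exceeded Dixon's critical value; chance gives about 1 in 20. The sets share animals and libraries, and no explanation was weighed.

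Eef1d gave 5 of the 13. Replicate 4 stood low in hepatectomy KO IP, with 0.28 CPM where the other 3 had 77.9 to 84.5, and low in hepatectomy flox input, with 8.2 CPM where the others had 130 to 143. Its log2 IP/input in that flox animal was 1.88, against -1.6 to -1.22 in the others. Sham flox replicate 4 had 76.7 CPM in IP, against 43.7 to 47.1, and sham KO replicate 1, whose input had 0 counts, had a log2 IP/input of 11.4, against -1.92 to 0.02.

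Rack1 had 101 CPM in the sham flox input of replicate 2, against 0.0811 to 0.243 CPM in the others, and a log2 IP/input of 6.75 in sham KO replicate 2, against -0.93 to 0.05. Eef1b2 had a log2 IP/input of 9.07 in hepatectomy KO replicate 4, whose input held 1 count, against 0.44 to 1.06. Eif4a1 had 364 CPM in the sham flox input of replicate 4, against 36.7 to 75.3, with a log2 IP/input of -2.22 in that animal, against -1.16 to -1.09. In the sham KO input of replicate 1 Eif4a1 had 3.1 CPM, against 118 to 137. Tpt1 had 356 CPM in the hepatectomy flox input of replicate 4, against 82.6 to 106, and Eef2 had 1576 CPM in the sham KO IP of replicate 4, the deepest library, against 836 to 954. Of the 13 sets, 5 held levels in input, 3 levels in IP and 5 ratios.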

How the results depend on the processing

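Each number here counts how many of the 9 genes were called. The 2 animals aged 77 days were replicates 1 and 2 of the sham flox group. Leaving them out removed no hepatectomy animal, so the animals compared after hepatectomy stayed the same. It left 2 animals in the sham flox group, in which all inputs had 0 counts of Eef1d. An effect of age was not tested. Between KO and flox IP libraries after hepatectomy the count of 2 fell to 1 without the 2 animals aged 77 days, with the replicate number as a block (replicate block, which keeps Rack1 and gives Eef1b2 log2 1.91, edgeR adjusted p = 0.096) and with only the groups compared fitted; it was 0 to 3 when 1 replicate was left out. Between surgeries in KO IP libraries it was 0 to 1 when 1 replicate was left out. In input, DESeq2 called 1 where edgeR called 0 in both genotype comparisons, in hepatectomy against sham flox livers and in the interaction, where it called 7.45% to 15.4% of all genes; in the sham genotype comparison the unfiltered table also gave 1, and leaving out a replicate gave 0 to 1. For IP/input, the 1 gene called (Eef1d) between genotypes in sham livers became 0 with library totals and no TMM, without the 77-day animals, with the animal as replicate block in edgeR and by differences per animal in limma, and 0 to 1 without a replicate. Between surgeries in flox livers it became 0 without the 77-day animals, with the animal block and in limma. In the IP/input interaction the count of 0 became 1 with DESeq2, upper-quartile factors, no filter or a filter at a mean of 50 CPM, and 0 to 1 without a replicate. IP over input in sham flox livers fell to 0 without the 77-day animals and in limma. The other 290 counts stayed within 1.5 times. No called value changed sign, and 242 of 2863 values called neither way did. In the labels, the replicates of different groups share only a number. Deviations from group means of libraries with the same number in different groups correlated at -0.28 to 0.47. What lay behind these correlations was not tested. The replicate block changed no other call in IP. In input, Rack1, Eef1b2, Eef1g and Eef1d had libraries at or near 0 counts and a wide spread, although input totals were alike (8177784 to 12533931); the cause was not tested. An input difference that edgeR did not call there is not shown to be absent.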

Other observations

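As a description without a test, the genes whose log2 IP/input over the 16 animals was most like the mean of the 9 genes were, among 2320 genes ranked, Rps12 (Pearson r 0.75), a ribosomal protein gene, Adipor1 (0.75), an adiponectin receptor gene, Tubb5 (0.73), a tubulin gene, Uhrf1bp1l (0.70) and Scp2 (0.69), a sterol carrier protein gene. The mean itself followed Rack1 (r 0.88) and Eef1d (0.65) more than Eef1a1 (0.21) or Eef2 (0.18), and the SD of the ratio was 3.99 for Rack1 and 5.80 for Eef1d. The points share libraries, depth and the inputs with counts near 0.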
